A study of Homo sapiens with 12 samples.

Results

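Excision and mismatch repair are the pathways that cut out damaged or mispaired bases and refill the gap from the opposite strand. This account follows 45 of their genes, named by symbol, in cytoplasmic RNA from Cal51, a human breast carcinoma cell line. Of the 45, 40 had a usable probe and form the data described here, among 9409 genes tested in all. They comprise 17 of 19 listed base excision repair genes, 5 of 5 mismatch repair genes and 18 of 21 nucleotide excision repair genes. NEIL1 and MPG (base excision glycosylases), XPA (damage verification in nucleotide excision repair), ERCC6 (the remodeller that senses stalled RNA polymerase) and GTF2H2 (a subunit of the repair and transcription factor TFIIH) had no probe that passed the detection filter and have no value here.

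The cells had been transfected with control siRNA or with siIPMK, which targets inositol polyphosphate multikinase (IPMK), an enzyme that makes higher inositol phosphates and phosphoinositides. All groups were harvested 72 hours after transfection, and RNA was taken from the cytoplasm released by digitonin. Within each siRNA, one group was left untreated and one received mitomycin C (MMC), a drug that links both strands of DNA, for 24 hours before harvest. The 4 groups are therefore control siRNA, control siRNA with MMC, siIPMK and siIPMK with MMC, with 3 bead arrays each, numbered as experiments 1, 2 and 3. The labels describe no rescue of IPMK, and no nuclear or whole-cell fraction was analysed here. They do not say whether the numbered experiments were separate cultures, so the p-values measure the spread between these arrays.

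In base excision repair a glycosylase removes one altered base, an endonuclease nicks the bare site, and a polymerase, scaffold and ligase fill and seal the gap. Mismatch repair reads replication errors through MutS complexes and licenses excision of the new strand through MutL complexes. Nucleotide excision repair opens the helix around bulky lesions with TFIIH, cuts on both sides and resynthesises a patch, entering either by a general recognition step or through a stalled RNA polymerase. Rapidly dividing carcinoma cells use all of these pathways, and several of the genes are known to be transcribed more in S phase.

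Between 12122 and 12687 probes were detected per control array and between 13067 and 13458 per siIPMK array, with a median of 21 beads behind each member probe and at least 8. Of the 40 genes, 36 were detected on all 12 arrays. The others were MLH3 on 10 arrays, ERCC4 on 7, UVSSA on 6 and PMS1 on 4. Of 8 epithelial markers 4 were measured, and all 4 (KRT8, KRT18, KRT19, EPCAM) were detected on all 12 arrays. The measured leukocyte marker was CD68, 1 of 6, and the measured fibroblast and endothelial markers were COL1A2 and PECAM1, 2 of 7. The siIPMK arrays of experiment 1 lay apart from the rest. On the first principal component across genes they were at 6.64 without and 11.97 with MMC, while the other siIPMK arrays spanned 32.18 to 38.42 and the control arrays -30.42 to -22.73. Counts are therefore also given without those arrays.

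Promoter sequence is shown first for 5 genes with depletion calls, because it lets the members that moved together be compared in letters. The 250 bases before the annotated start of 37 of the 40 genes were found in RefSeq (GRCh38.p14). Shown are the 3 genes with the largest falls after siIPMK without MMC and 2 genes higher in both depletion comparisons, UVSSA and ERCC5. UVSSA was not above background on any control array, so its rise is known only as a bound. Each window is given 5′ to 3′ on the strand of its gene. Capitals mark matches, on either strand, to short words known from cell cycle and growth promoters. For E2F factors, which drive S phase genes, the word was either TTCCCGC or, in its second common form, TTGGCGC. The CHR element of mitotic genes was read as TTTGAA. The element bound by NF-Y was read as CCAAT, and that of the ETS family as CCGGAAG. The second E2F form read backwards can overlap the NF-Y word, which it did in none of these windows.
TDG (chr12:103965622-103965871, plus strand): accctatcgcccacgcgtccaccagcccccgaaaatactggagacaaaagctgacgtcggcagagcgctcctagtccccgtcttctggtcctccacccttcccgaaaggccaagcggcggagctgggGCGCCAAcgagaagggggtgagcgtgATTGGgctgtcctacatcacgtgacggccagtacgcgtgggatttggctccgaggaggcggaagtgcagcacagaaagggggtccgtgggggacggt
XRCC1 (chr19:43575528-43575777, minus strand): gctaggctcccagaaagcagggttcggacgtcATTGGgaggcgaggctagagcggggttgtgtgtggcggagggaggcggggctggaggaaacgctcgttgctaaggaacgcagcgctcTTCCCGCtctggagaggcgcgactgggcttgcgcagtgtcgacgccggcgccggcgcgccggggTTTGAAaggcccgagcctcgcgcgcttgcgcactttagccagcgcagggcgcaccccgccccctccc
UNG (chr12:109097347-109097596, plus strand): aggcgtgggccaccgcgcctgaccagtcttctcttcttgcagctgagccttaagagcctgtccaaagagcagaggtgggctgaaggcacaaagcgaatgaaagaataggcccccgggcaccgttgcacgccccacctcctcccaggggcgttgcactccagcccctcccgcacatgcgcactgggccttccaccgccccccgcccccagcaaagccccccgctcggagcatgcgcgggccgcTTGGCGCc
UVSSA (chr4:1346958-1347207, plus strand): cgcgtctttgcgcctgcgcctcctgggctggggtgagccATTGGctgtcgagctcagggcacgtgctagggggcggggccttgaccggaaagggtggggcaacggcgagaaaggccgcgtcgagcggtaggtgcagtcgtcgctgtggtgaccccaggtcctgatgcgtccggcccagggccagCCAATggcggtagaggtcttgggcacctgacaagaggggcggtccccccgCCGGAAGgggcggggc
ERCC5 (chr13:102845782-102846031, plus strand): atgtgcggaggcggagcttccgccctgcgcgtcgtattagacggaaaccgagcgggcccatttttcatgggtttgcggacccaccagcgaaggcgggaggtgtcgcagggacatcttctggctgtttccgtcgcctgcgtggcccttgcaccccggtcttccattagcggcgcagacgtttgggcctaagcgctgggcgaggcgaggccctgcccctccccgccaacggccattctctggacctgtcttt

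The TDG window, for thymine DNA glycosylase, held an E2F word at -123 and a CCAAT word at -97 relative to the start. That of XRCC1, the repair scaffold, held E2F, CHR and CCAAT words, and that of UNG, uracil DNA glycosylase, had an E2F word next to the start. The UVSSA window had 2 CCAAT words and an ETS word at -16. In the window of ERCC5, which encodes a repair nuclease, none of these letters was found. Among the 12 genes that fell in both depletion comparisons (without and with MMC), 5 windows held an E2F word (41.7%), against 6 of the other 25 (24.0%) and 7.81% of 35116 RefSeq windows of the same length. A CCAAT word was in 9 of the 12 (75%), in 8 of the other 25 (32.0%) and in 32.0% of all windows. A CHR word was in 2 of the 12 and 0 of the 25, against 13.3% of all windows. An ETS word was in 1 of the 12 and 5 of the 25, against 8.52%, and the NRF1 palindrome in 1 and 1, against 1.03%. These are counts of letters and do not show that a factor binds.

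Without MMC, cytoplasmic transcripts of 14 of the 40 genes fell after siIPMK, 3 rose and 23 had no call. A call means a Benjamini-Hochberg adjusted p under 0.05 over all 9409 genes by limma's moderated test, which is the source of each adjusted p in the text. Of all genes tested, 19.9% fell and 20.4% rose, 40.3% together, so the members' 35.0% that fell and 7.5% that rose are read against a transcriptome in which calls were common in both directions. UVSSA, one of the 3, was not above background on any control array and passed the filter only through its siIPMK arrays, so its rise is known as a bound and is no support for the count. The median log2 change of the 40 genes was -0.23, against 0.0003 over all genes. Arrays of the 2 siRNAs did not overlap for 22 of the 40 genes, and for 52.2% of all genes. The falls lay mostly in base excision repair, where 11 of 17 genes fell and 0 rose, with a median of -0.36. In nucleotide excision repair 3 of 18 fell and 3 rose, with a median of -0.07 whose sign depended on the scaling (0.01 with scaling by the median of all probes). That median counts UVSSA and was -0.1 without it. Of the 5 mismatch repair genes none passed in limma's test, 2 had an unadjusted p under 0.05 (50.2% of all genes did), and the median was -0.24.

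**Figure D1:**
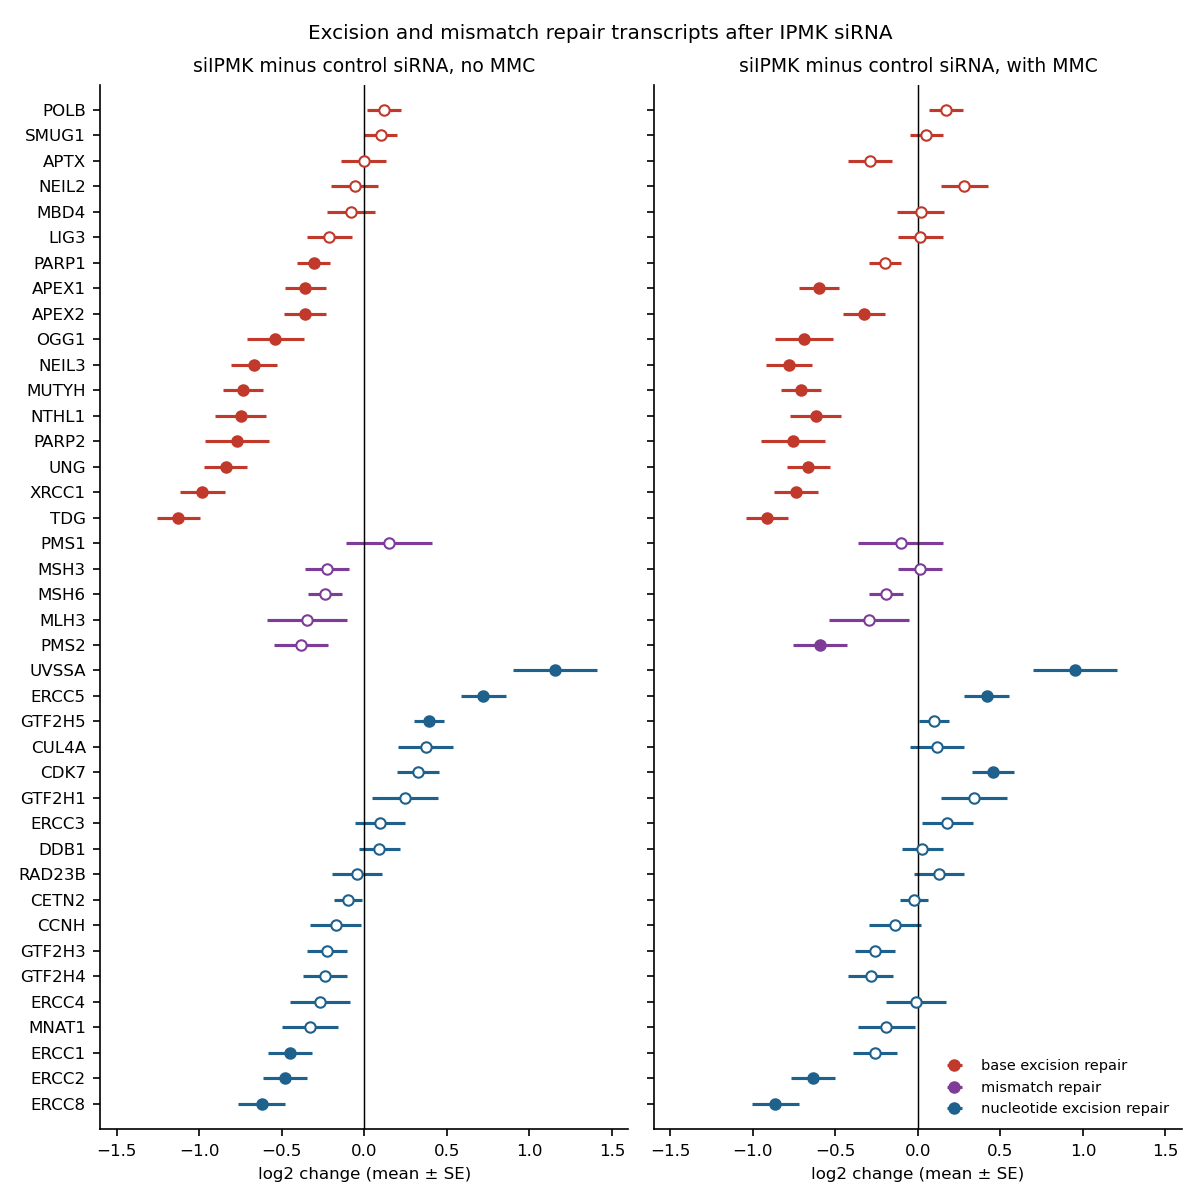
Log2 change of each of the 40 genes after siIPMK (mean ± SE of the fit, 3 arrays per group), without MMC on the left and with MMC on the right. Filled points passed the adjusted threshold and open points did not; red is base excision, purple mismatch and blue nucleotide excision repair. The filled base excision points lie left of 0 in both panels, from -0.31 to -1.13 without MMC. The UVSSA points, and the PMS1 point without MMC, rest on control arrays that were not above background.

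The counts depended on single arrays. Without the control array of experiment 3 the falls numbered 9, and without the siIPMK array of experiment 2 they numbered 8, against 14.9% and 13.1% of all genes; the second followed the loss of OGG1, APEX1, APEX2, PARP1, ERCC1 and ERCC2. With both siIPMK arrays of experiment 1 left out, 19 genes fell and 5 rose, against 26.6% and 27.1% of all genes, and the 17 original calls were kept. Scaling the arrays by the median of all probes, in place of quantile normalization, raised the median change of all genes by 0.13 and moved rises from 50.7% to 69.6% of all calls. Under it 7 members fell and 5 rose, against 11.3% and 26.0% of all genes, and the calls of OGG1, APEX1, APEX2, PARP1, ERCC1, ERCC2 and ERCC8 were lost.

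The glycosylases, which choose the base to be removed, had the lowest median change of the role groups. Of 9 measured, 6 fell without MMC and the same 6 with it, against 19.9% and 20.4% of all genes. Their role group had a median of -0.67 without MMC and -0.66 with it.

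TDG, which removes thymine mispaired with guanine and oxidised forms of methylcytosine, had the largest fall of the 40 genes. Its log2 intensity was 12.06, 12.05 and 12.11 on the control arrays of experiments 1 to 3 and 11.13, 10.90 and 10.81 on the siIPMK arrays. With MMC it was 11.79, 12.004 and 12.14 on the control and 11.32, 10.99 and 10.88 on the siIPMK arrays. No siIPMK array reached the lowest control array, and the siIPMK arrays of experiment 1 were the highest of their groups. The change was -1.13 ± 0.13 without MMC (2.18-fold lower, adjusted p 3.75e-05) and -0.92 ± 0.13 with it (1.89-fold lower, adjusted p 0.000187). A second, dimmer TDG probe changed by -0.97 and -1.08.

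UNG, which removes uracil from DNA, read 11.57, 11.50 and 11.68 with control siRNA and 10.94, 10.62 and 10.66 with siIPMK. With MMC the values were 11.04, 10.94 and 11.25 and 10.66, 10.26 and 10.32. The control and siIPMK arrays did not overlap in either condition, and the MMC arrays were lower than the untreated ones in each experiment and siRNA. UNG fell by 0.84 ± 0.13 without MMC (adjusted p 0.00029) and by 0.66 ± 0.13 with it (adjusted p 0.00153).

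The 2 glycosylases that deal with oxidised guanine and its mispairs both fell. MUTYH, which takes out adenine placed opposite oxidised guanine, gave 10.32, 10.27 and 10.45 on control and 9.83, 9.47 and 9.53 on siIPMK arrays, and with MMC 10.33, 10.23 and 10.37 and 9.70, 9.65 and 9.45. Its siIPMK arrays were all below its control arrays, by 0.74 ± 0.12 and 0.71 ± 0.12 (adjusted p 0.0004 and 0.000565). OGG1, which removes oxidised guanine itself, gave 9.32, 8.88 and 9.07 on control and 8.96, 8.38 and 8.31 on siIPMK arrays, and with MMC 9.06, 8.97 and 9.01 and 8.54, 8.12 and 8.30. Without MMC the groups overlapped, since the siIPMK array of experiment 1 was above the control array of experiment 2. OGG1 fell by 0.54 ± 0.17 there (adjusted p 0.0235) and by 0.69 ± 0.17 with MMC (adjusted p 0.00617). The first of these calls was lost when either siIPMK array of experiments 2 and 3 or either control array of experiments 1 and 3 was left out, with changes of -0.42 to -0.55 and adjusted p from 0.0541 to 0.115.

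NTHL1, which acts on oxidised pyrimidines, read 10.44, 10.35 and 10.55 on control and 10.07, 9.48 and 9.54 on siIPMK arrays. With MMC it read 10.25, 10.23 and 10.29 and 9.90, 9.54 and 9.48. The groups did not overlap, and the siIPMK arrays of experiment 1 stood well above the other siIPMK arrays. The changes were -0.75 ± 0.15 and -0.62 ± 0.15 (adjusted p 0.00192 and 0.00579). NEIL3, a glycosylase of single-stranded and replicating DNA that can also unhook crosslinks, read 8.33, 8.16 and 8.28 against 7.70, 7.71 and 7.36, and with MMC 8.34, 8.12 and 8.29 against 7.63, 7.32 and 7.46. Its siIPMK arrays were all lower than its control arrays. NEIL3 fell by 0.67 ± 0.14 and 0.78 ± 0.14 (adjusted p 0.00211 and 0.000803). In the authors' processed values the NEIL3 falls were smaller, 0.42 and 0.48 on their log2-like scale, and still passed.

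The other glycosylases had no call. SMUG1, a second uracil glycosylase, changed by 0.10 ± 0.10 and 0.05 ± 0.10. MBD4, which acts on thymine at methylated CpG sites, changed by -0.08 ± 0.14 and 0.02 ± 0.14. NEIL2, a relative of NEIL3 that prefers bubbles in DNA, changed by -0.06 ± 0.14 and 0.28 ± 0.14. The 95% interval for SMUG1 without MMC ran from -0.11 to 0.31, so a fall of the size seen for UNG lies outside it.

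Both enzymes that cut the bare site after base removal fell. APEX1, the main abasic site endonuclease, had control values of 12.81, 12.82 and 12.93 and siIPMK values of 12.61, 12.38 and 12.49. With MMC these were 12.78, 12.86 and 12.68 and 12.47, 12.16 and 11.90. The groups were apart in both conditions, and the lowest of the 12 values was the siIPMK array with MMC of experiment 3. The falls were 0.36 ± 0.12 (adjusted p 0.0308) and 0.60 ± 0.12 (adjusted p 0.00181). The first lost its call when any untreated array other than the siIPMK array of experiment 1 was left out, with changes of -0.30 to -0.38. A second APEX1 probe fell by 0.54 and 0.56. APEX2, a related nuclease tied to the replication clamp, fell by 0.36 ± 0.13 and 0.33 ± 0.13 (adjusted p 0.0346 and 0.0498). The second APEX2 value sits at the threshold. It lost its call without any of 10 single arrays, with changes of -0.21 to -0.34 and adjusted p from 0.0519 to 0.219. The first lost it without either array of experiments 2 and 3 in either untreated group, at -0.28 to -0.38.

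Among the proteins that fill and seal the gap, the scaffold and one break sensor fell strongly and the polymerase and ligase had no call. XRCC1, the scaffold that gathers the others, read 9.99, 9.78 and 9.86 on control and 9.15, 8.74 and 8.79 on siIPMK arrays, and with MMC 9.67, 9.82 and 9.62 and 9.17, 8.83 and 8.90. The groups were far apart in both conditions, and the siIPMK arrays of experiment 1 were again nearest the controls. XRCC1 fell by 0.98 ± 0.14 (1.98-fold lower, adjusted p 0.000126) and by 0.74 ± 0.14 (1.67-fold lower, adjusted p 0.000961).

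PARP2, a poly(ADP-ribose) polymerase activated by nicks, read 9.79, 9.75 and 9.86 against 9.33, 8.73 and 9.02, and with MMC 9.40, 9.74 and 9.76 against 9.27, 8.45 and 8.91. The siIPMK arrays were all below the controls and spread more widely among themselves. It fell by 0.77 ± 0.19 and 0.76 ± 0.19 (adjusted p 0.00607 and 0.00649), and a second probe fell by 0.73 and 0.69. PARP1, the more abundant break sensor of the same family, fell by 0.31 ± 0.10 without MMC (adjusted p 0.0233) and had no call with MMC, at -0.20 ± 0.10. Its call was lost without either array of experiments 2 and 3 in either untreated group, at -0.27 to -0.31. POLB, the gap-filling polymerase, changed by 0.12 ± 0.10 and 0.17 ± 0.10, and LIG3, the ligase bound to XRCC1, by -0.21 ± 0.14 and 0.01 ± 0.14. APTX, which clears failed ligation ends, changed by -0.01 ± 0.14 and -0.29 ± 0.14, with no call in either.

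The changes of proteins that work bound to each other differed in size. XRCC1 fell by 0.98 while LIG3 changed by -0.21 and POLB by 0.12. With MMC the changes were -0.74 for XRCC1, 0.01 for LIG3 and 0.17 for POLB. These sets were picked with the changes known, so no test is given for them.

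**Figure D2:**
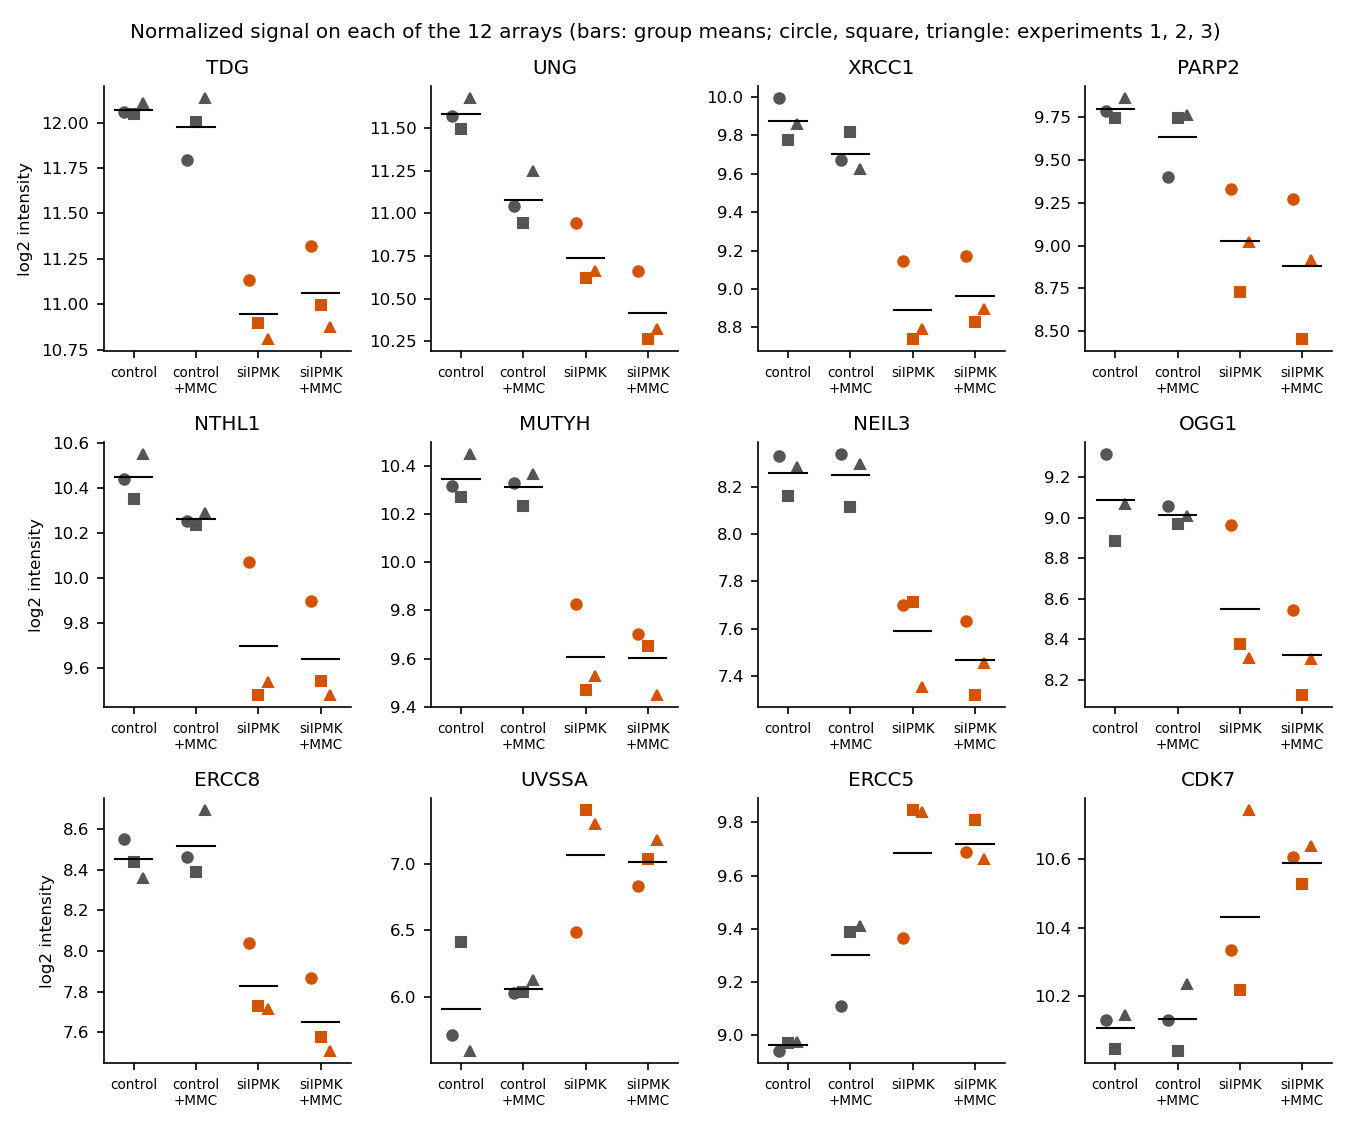
Normalized log2 intensity of 12 genes on each of the 12 arrays, grey for control siRNA and orange for siIPMK, with horizontal bars at group means and a separate vertical scale per gene. In the 9 panels from TDG to ERCC8 the siIPMK means lie below the control means, those of UVSSA, ERCC5 and CDK7 are higher (UVSSA was not above background on the control arrays), and the orange circles of experiment 1 are often the closest to the grey points.

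In mismatch repair little passed. MSH6, the MutS subunit for single mismatches, changed by -0.24 ± 0.10 and -0.19 ± 0.10, and MSH3, its counterpart for larger loops, by -0.23 ± 0.13 and 0.01 ± 0.13. MLH3, a MutL subunit, changed by -0.35 ± 0.24 and -0.30 ± 0.24, on a probe detected on 10 arrays. PMS1, another, was detected on 4 arrays and on 0 of the untreated control arrays, so it has no fold without MMC, and it changed by -0.10 ± 0.26 with it. PMS2, the MutL subunit with the nicking activity, was 8.78, 8.70 and 8.64 on control and 8.48, 8.37 and 8.13 on siIPMK arrays. With MMC it was 8.91, 8.59 and 8.84 and 8.52, 7.83 and 8.22. The groups did not overlap in either condition, but only the change with MMC passed, at -0.59 ± 0.16 (adjusted p 0.0105) against -0.38 ± 0.16 without (adjusted p 0.0754). Leaving out the siIPMK array with MMC of experiment 2 ended that call, at -0.41 (adjusted p 0.0622). PMS2 has near-identical pseudogenes that its probe may also read, and its second, dimmer probe had no call.

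Nucleotide excision repair genes moved in both directions. The recognition proteins had no call in either comparison. RAD23B, which stabilises the lesion sensor XPC, changed by -0.05 ± 0.15 and 0.13 ± 0.15. CETN2, the third member of that sensor, changed by -0.10 ± 0.08 and -0.02 ± 0.08. DDB1, the adaptor of the ultraviolet damage ubiquitin ligase, changed by 0.09 ± 0.12 and 0.03 ± 0.12, and CUL4A, its cullin, by 0.37 ± 0.17 and 0.12 ± 0.17. A second CUL4A probe passed with MMC, at 0.36 (adjusted p 0.0447 over all kept probes).

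TFIIH, which unwinds the helix at a lesion and at promoters, had 9 measured genes. ERCC2, the helicase that verifies damage, read 7.96, 7.92 and 7.89 against 7.41, 7.30 and 7.62, and with MMC 8.26, 7.90 and 8.11 against 7.42, 7.47 and 7.46. Its siIPMK arrays were all below its controls, and it fell by 0.48 ± 0.13 and 0.64 ± 0.13 (adjusted p 0.0111 and 0.00206). The first call was lost without the siIPMK array of experiment 2, at -0.41 (adjusted p 0.0571). In the authors' processed values the second fall was 0.38. ERCC3, the other helicase, changed by 0.09 ± 0.15 and 0.18 ± 0.15, with no call. The core subunits GTF2H1, GTF2H3 and GTF2H4 changed by 0.24 ± 0.20, -0.23 ± 0.12 and -0.24 ± 0.14 without MMC, and by 0.34 ± 0.20, -0.26 ± 0.12 and -0.29 ± 0.14 with it.

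GTF2H5, the small subunit that stabilises TFIIH, was 11.95, 11.94 and 11.99 on control and 12.41, 12.42 and 12.23 on siIPMK arrays. With MMC it was 12.25, 12.34 and 12.21 and 12.49, 12.30 and 12.30. The untreated groups were apart and the MMC groups overlapped. It rose by 0.39 ± 0.09 without MMC (adjusted p 0.00394), a value that dropped to 0.21 with no call when the arrays were scaled by the median of kept probes, and changed by 0.10 ± 0.09 with it.

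CDK7, the kinase of TFIIH, read 10.13, 10.05 and 10.14 against 10.33, 10.22 and 10.74, and with MMC 10.13, 10.04 and 10.24 against 10.61, 10.53 and 10.64. All siIPMK arrays were above the control arrays of their condition. The change passed with MMC, at 0.46 ± 0.13 (adjusted p 0.0112), and narrowly missed without, at 0.33 ± 0.13 (adjusted p 0.0555). Its partners in the kinase module went the other way without a call. CCNH, the cyclin, changed by -0.17 ± 0.16 and -0.14 ± 0.16, and MNAT1, the assembly factor, by -0.33 ± 0.17 and -0.19 ± 0.17.

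The nucleases that cut on the 2 sides of the lesion also parted. ERCC5, which cuts on the downstream side, was 8.94, 8.97 and 8.97 on control and 9.37, 9.85 and 9.84 on siIPMK arrays. With MMC it was 9.11, 9.39 and 9.41 and 9.69, 9.81 and 9.66. The control arrays of the untreated group lay within a narrow band, and each siIPMK array was above the controls of its condition. ERCC5 rose by 0.72 ± 0.14 (1.65-fold higher, adjusted p 0.00116) and by 0.42 ± 0.14 with MMC (1.34-fold higher, adjusted p 0.0255). The second call was lost without the control array with MMC of experiment 1, at 0.32 (adjusted p 0.105), and without the siIPMK array with MMC of experiment 2, at 0.37 (adjusted p 0.0911). ERCC1, a subunit of the nuclease of the other side, fell by 0.45 ± 0.13 without MMC (adjusted p 0.016) and changed by -0.26 ± 0.13 with it. That call was lost without any of 3 single arrays, at -0.36 to -0.44, and its 4 probes disagreed. The probes changed by -0.45, -0.23 and -0.88, and a dim one detected on 6 arrays by 1.02. ERCC4, the catalytic partner of ERCC1, changed by -0.27 ± 0.18 and -0.01 ± 0.18, on a probe detected on 7 arrays.

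Transcription-coupled repair held ERCC8, the largest fall among the nucleotide excision genes measured, and UVSSA, known only as a bound. ERCC8, the subunit that recognises the target of the ubiquitin ligase at a stalled polymerase, read 8.55, 8.44 and 8.36 against 8.04, 7.73 and 7.72, and with MMC 8.46, 8.39 and 8.69 against 7.87, 7.58 and 7.51. Its siIPMK arrays were all below its controls. ERCC8 fell by 0.62 ± 0.14 and 0.86 ± 0.14 (adjusted p 0.00381 and 0.000484), and its second probe fell by 0.93 and 0.84. In the authors' processed values the ERCC8 changes were smaller, at -0.41 and -0.56. UVSSA, which is recruited to the stalled polymerase and brings TFIIH and USP7, was dim. It read 5.72, 6.41 and 5.59 on control and 6.49, 7.40 and 7.30 on siIPMK arrays, and with MMC 6.03, 6.04 and 6.13 and 6.83, 7.03 and 7.18. It was detected on 0 of the 6 control arrays and on 6 of 6 siIPMK arrays. Against the lowest detected control signal, the siIPMK level was at least 1.43-fold higher without MMC and at least 1.48-fold higher with it. These bounds hold for the main processing only. Without background correction and in the authors' processed values the UVSSA log2 changes were smaller, down to 0.44 without MMC and 0.37 with it. The control readings themselves are not levels, so the adjusted p values of the fit (0.00298 and 0.00875) are no support for these bounds.

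With MMC present in both groups, 13 of the 40 genes fell after siIPMK and 3 rose, against 20.4% and 20.8% of all genes, 41.3% together. The members' median change was -0.19 and that of all genes 0.01. Arrays did not overlap for 21 of the 40, and for 49.4% of all genes. By pathway, 10 of 17 base excision genes fell with a median of -0.60, and 1 of 5 mismatch genes fell. In nucleotide excision repair 2 of 18 fell and 3 rose, UVSSA again only as a bound, with a median of 0.01. That median counts UVSSA and was -0.01 without it. Its sign also changed with the scaling and the arrays included (-0.07 with scaling by the median of kept probes, -0.03 without both siIPMK arrays of experiment 1). The depletion comparisons without and with MMC share no arrays, but arrays of the same siRNA and experiment deviated together (correlations from 0.193 to 0.704). These comparisons are therefore not independent of each other. In both, 12 genes fell and 2 rose, UVSSA and ERCC5, and 34 of the 40 had the same sign. The matching shares over all genes were not computed, so these joint counts are not read as particular to the members. Across the 40 genes the changes correlated with r = 0.918, and across all genes with r = 0.916. Genes are not independent replicates. With both siIPMK arrays of experiment 1 left out, 17 members fell and 4 rose with MMC, against 25.8% and 27.6% of all genes. Scaling by the median of all probes gave 11 falls and 4 rises, against 11.6% and 26.4% of all genes, with the median of all genes at 0.14 and rises making up 69.5% of all calls, against 50.5%.

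**Figure D3:**
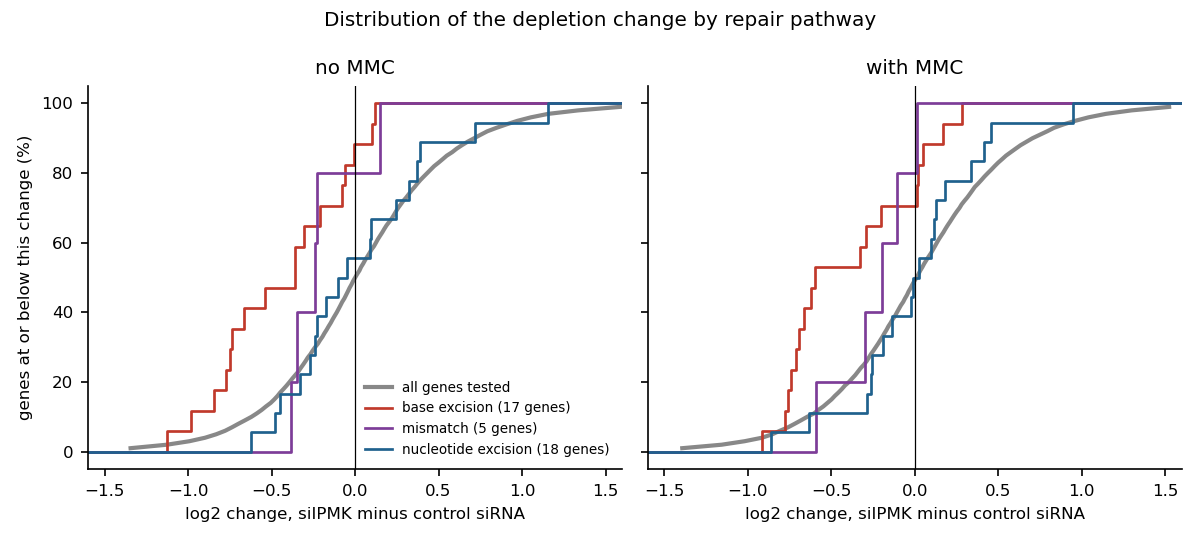
Share of genes (%) at or below each log2 change after siIPMK, for base excision, mismatch and nucleotide excision repair genes and for all 9409 genes, without and with MMC. The base excision curve lies left of the grey curve of all genes over most of its range, with medians of -0.36 and -0.60. The nucleotide excision curve runs close to the grey curve and includes UVSSA, which was not above background on the control arrays.

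The siIPMK array nearest the controls was that of experiment 1 for 14 of the 17 members called without MMC (82.4%), and for 77.7% of all genes called. With MMC this held for 13 of 16 (81.2%), and for 69.1% of all genes called. Proliferation genes moved in the same arrays. Of 29 measured genes of S phase and mitosis, 24 fell without MMC and 29 with it, with medians of -0.76 and -0.90. The mean log2 intensity of the 17 base excision genes ran from 10.26 to 10.40 on the control arrays and from 9.83 to 10.05 on the siIPMK arrays, where the 2 arrays of experiment 1 had the highest values for both gene sets. The mean of the 18 nucleotide excision genes ran from 9.49 to 9.61 on control and from 9.52 to 9.60 on siIPMK arrays. The part of proliferation in the falls was not tested. In a culture of one line, fewer cells in S phase and less RNA per cell cannot be told apart.

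**Figure D4:**
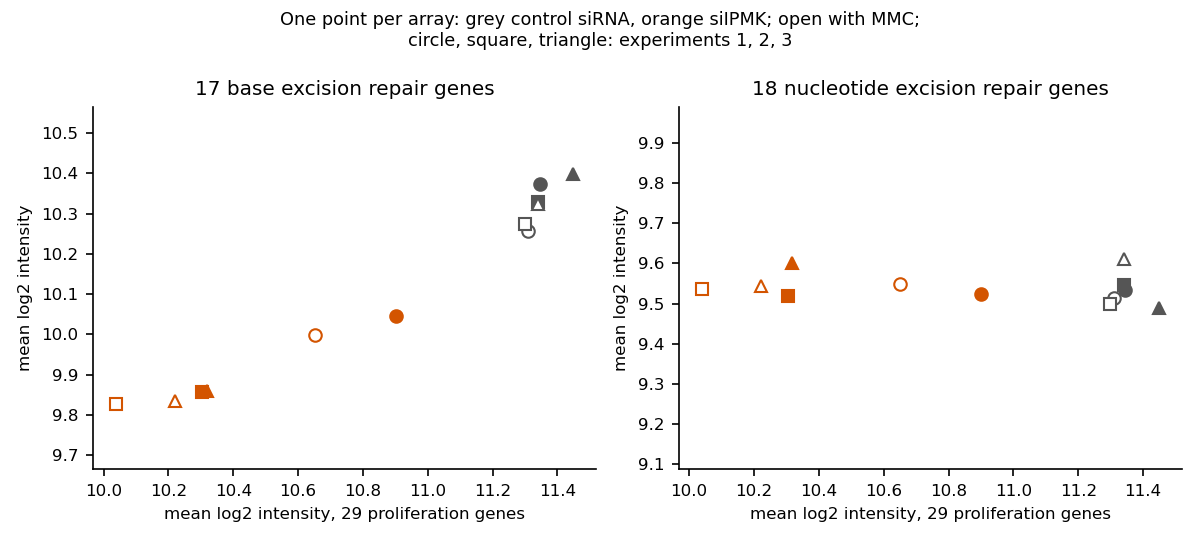
Mean log2 intensity of the 17 base excision genes (left) and the 18 nucleotide excision genes (right) against the mean of 29 proliferation genes, 1 point per array. The base excision means are 9.83 to 10.05 on siIPMK arrays and 10.26 to 10.40 on control arrays, while the nucleotide excision means of the 2 siRNAs overlap.

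Markers of the fraction also moved. Of 6 nuclear RNAs 3 were measured (RPPH1, TERC, RN7SK), and their summed linear intensity was 461 to 489 on untreated control arrays and 2297 to 2336 on untreated siIPMK arrays. With MMC it was 550 to 653 and 1759 to 2452. RPPH1 rose by 3.11 ± 0.14 and 2.68 ± 0.14 and RN7SK by 1.25 ± 0.42 and 1.29 ± 0.42, while TERC had no call, at 0.22 and 0.09 (adjusted p 0.548 and 0.815). The epithelial markers summed to 10376 to 11133 and 15897 to 20190 without MMC, and to 11392 to 12604 and 17777 to 20382 with it. KRT8, KRT19 and EPCAM rose, by 0.67, 1.496 and 0.59 without MMC and by 0.63, 1.31 and 0.48 with it, and KRT18 had no call, at -0.36 and -0.37 (adjusted p 0.0803 and 0.0706). The part of these differences in the member results was not tested.

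Other genes of the same pathways, repair synthesis included, were counted in the same fit. Of 32 measured of 40 listed, 17 fell and 1 rose without MMC (median -0.47), and 21 fell and 1 rose with it (median -0.55), against the 19.9% and 20.4% of all genes that fell. The largest falls were in subunits of replicative polymerase and clamp loading. POLE3, a histone-fold subunit of polymerase epsilon, changed by -1.73 ± 0.20 and -1.86 ± 0.20. POLE2, the second subunit of the same enzyme, fell by 1.53 ± 0.26 and 1.37 ± 0.26, and RFC2, part of the clamp loader, by 1.08 ± 0.29 and 1.27 ± 0.29. Their adjusted p values ran from 4.07e-05 to 0.00838. USP7, the deubiquitinase that UVSSA carries, changed by 0.06 ± 0.14 without MMC and rose by 0.40 ± 0.14 with it (adjusted p 0.0370).

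The effect of MMC itself was compared within each siRNA. Under control siRNA 0 of the 40 passed in limma's test, against 2.06% of all genes, and 5 had an unadjusted p under 0.05, against 11.2%. Under siIPMK 0 passed, against 0.361% of all genes, and 2 had an unadjusted p under 0.05, against 5.64%. Arrays of the same siRNA and experiment deviated from their group means together in these comparisons, so the fit with such pairs as blocks is given beside it. It called 5 members under control siRNA, against 10.1% of all genes, and 2 under siIPMK, against 2.95%.

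UNG fell with MMC in each experiment. Within experiments 1, 2 and 3 its MMC change was -0.53, -0.56 and -0.43 under control siRNA and -0.28, -0.36 and -0.34 under siIPMK. Its arrays without and with MMC did not overlap under control siRNA. The paired fit gave -0.50 ± 0.08 (adjusted p 0.000115) and -0.33 ± 0.08 (adjusted p 0.0234), where the unpaired adjusted p values were 0.0762 and 0.722.

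APTX, whose untreated control arrays read 10.09, 10.10 and 10.08 and whose control arrays with MMC read 10.48, 10.79 and 10.57, changed by 0.39, 0.70 and 0.49 within experiments. The paired fit gave 0.52 ± 0.10 (adjusted p 0.000526; unpaired 0.0738). Under siIPMK its changes were 0.25, 0.01 and 0.46, with no call. A second, dimmer APTX probe changed by 0.29 under control siRNA and 0.33 under siIPMK, so it did not show a larger rise with control siRNA. GTF2H5 changed by 0.30 ± 0.08 under control siRNA (paired adjusted p 0.0113; unpaired 0.133) and ERCC5 by 0.34 ± 0.10 (paired adjusted p 0.0333; unpaired 0.345). ERCC5 and GTF2H5 also rose after siIPMK without MMC, in a comparison that shares the untreated control arrays with this one. MSH3 changed by -0.25 ± 0.08 (paired adjusted p 0.0441), at -0.23, -0.30 and -0.22 within experiments. A second, dimmer MSH3 probe, detected on 12 arrays, did not share this fall, at 0.03. Under siIPMK the other call of the paired fit was APEX1, at -0.32 ± 0.09 (paired adjusted p 0.0410, unpaired 0.671), with changes of -0.15, -0.21 and -0.60. Under control siRNA the same probe changed by -0.08. A second APEX1 probe changed by -0.27 under control siRNA and -0.29 under siIPMK.

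**Figure D5:**
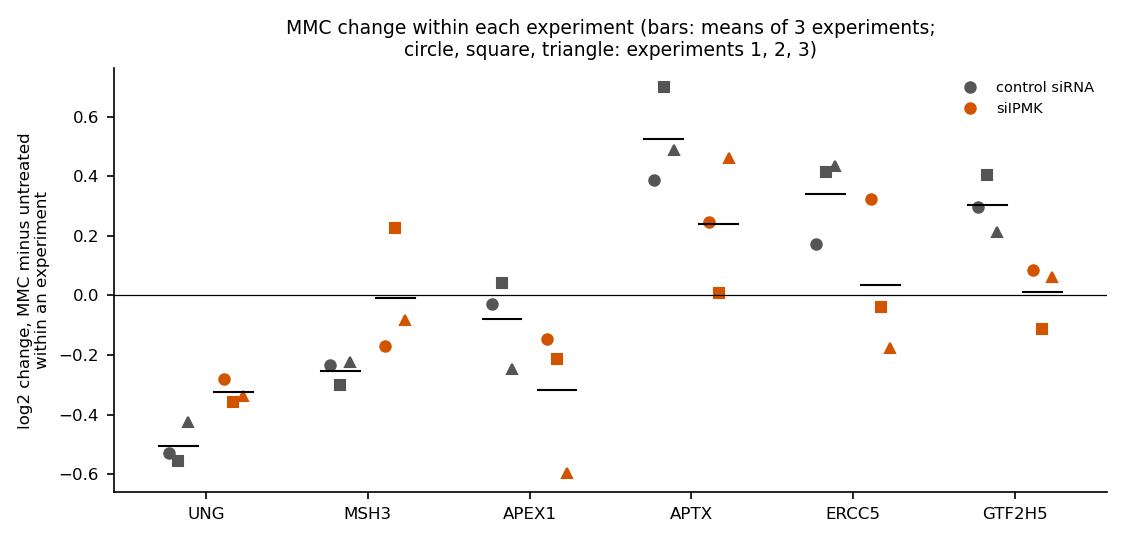
Log2 MMC change within each experiment for the 6 genes called in the paired fits, grey under control siRNA and orange under siIPMK, with bars at the mean of 3 experiments. UNG lies below 0 in all 6 pairs, and APTX, ERCC5 and GTF2H5 lie above 0 in the 3 control pairs.

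The difference between the MMC changes under the 2 siRNAs was tested directly. In limma's test 0 of the 40 genes and 0 of all 9409 (0%) passed; 1 member and 327 genes (3.48%) had an unadjusted p under 0.05. The paired fit called 0 members and 0.638% of all genes. The lowest unadjusted p values were those of GTF2H5, at -0.29 ± 0.13 (p 0.0381, adjusted p 0.999, limma), and of NEIL2, at 0.34 ± 0.20 (p 0.113, adjusted p 0.999). NEIL2 read 8.93, 8.78 and 8.998 and, with MMC, 8.73, 8.40 and 8.77 on control arrays, and 8.70, 8.78 and 9.04 and 8.84, 8.79 and 9.12 on siIPMK arrays. Its control arrays with MMC were the lowest group, but the groups overlapped in part. An MMC response that differs between the siRNAs was thus not detected for these 40 genes with 3 arrays per group, which does not show that the responses were alike.

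The sensor XPC, which works with RAD23B and CETN2, and DDB2, which works with DDB1 and CUL4A, are not among the 40 genes and are given because their partners are. XPC read 9.72, 9.79 and 9.95 on untreated control arrays and 11.03, 10.88 and 10.95 with MMC, and 10.35, 10.27 and 10.14 and 10.86, 10.34 and 10.51 with siIPMK. Control arrays with MMC were higher than untreated ones by 1.13 ± 0.13 (adjusted p 0.000131). Under siIPMK the change was 0.31 ± 0.13 (adjusted p 0.772). The difference between these was -0.82 ± 0.19 with an adjusted p of 0.403, and in the paired fit -0.82 ± 0.13 with an adjusted p of 0.00141. DDB2 was not above background on any of the 6 untreated arrays and was detected on all 6 with MMC. It passed the detection filter only through its arrays with MMC, so its rise is known as a bound. Under control siRNA DDB2 was at least 1.45-fold higher with MMC, and under siIPMK at least 1.13-fold higher. The adjusted p values of the fit (0.0488 and 0.992) use untreated readings that are not levels, and are no support for these bounds. After siIPMK, XPC rose by 0.44 ± 0.13 without MMC (adjusted p 0.0172) and fell by 0.39 ± 0.13 with it (adjusted p 0.0300). With MMC in both groups DDB2 fell by 0.67 ± 0.22 after siIPMK (adjusted p 0.0258). The partners RAD23B, CETN2, DDB1 and CUL4A had MMC changes under control siRNA between -0.15 and 0.06, none of which passed.

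Where a gene had several probes, their signs were compared. Of 15 members with more than 1 kept probe, 10 had probes of one sign in both depletion comparisons, among them TDG, UNG, MUTYH, OGG1, PARP2, APEX1 and ERCC8. The other 5 were ERCC1, DDB1, LIG3, MSH3 and PMS2.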

How the data were processed

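Illumina bead arrays measured cytoplasmic RNA in 4 groups of 3. Per the file headers, the deposited bead table holds 48802 probes, each with a mean intensity, a detection p-value and a bead count for every array. The authors also deposited processed values that look like log2 intensities; the submitters' processing notes name lumi and give no version. Symbols came from the platform annotation, updated through RefSeq. None of these probes is annotated as IPMK, and the depletion was not read here.

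Background correction used neqc (limma 3.58.1, R 4.3.3) with an offset of 16, followed by quantile normalization and log2. Probes with detection p under 0.01 on at least 3 of 12 arrays were kept (13830), and the brightest named probe stood for its gene (9409 genes). A model with a mean for each of the 4 groups was fitted by lmFit and eBayes with a trend, with Benjamini-Hochberg adjustment over all genes. The fit was checked on simulated data with independent noise on each array. That check cannot show how the fit behaves where arrays deviate together, as some did here. Each ± is a standard error from that model, or from the paired fit where a value is given as paired, n = 3 arrays per group. Arrays have no read depth, and their number limits the precision.

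Same-numbered arrays deviated together in the MMC comparisons (correlations from 0.193 to 0.704), so they were also fitted as pairs, a pairing taken from the data and the labels' experiment numbers. In the depletion comparisons the correlations ran from -0.022 to 0.195, and no pairing was assumed. Members and gene lists were chosen with earlier results of these data known. Values on each array are given for up to 8 members with the largest changes per depletion comparison and no overlap of replicates, for members that rose, and for the 2 lowest p values in the difference of MMC changes. APTX, APEX1, ERCC2 and PMS2 were added after their values were seen. Promoter windows are RefSeq's, GRCh38.p14. Alternatives changed the background step, scaling, detection filter, probe rule, block, variance trend and arrays included.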

Additional observations from a re-analysis of the deposited data

How the results depend on the processing

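No member's called change after siIPMK reversed its direction under any alternative run. Direction under the alternatives was not tested for called changes of genes outside the members, or for the MMC calls of the paired fit. The nucleotide excision median, near 0, did change sign: from -0.07 to 0.01 without MMC under all-probe median scaling, and from 0.01 with MMC to -0.07 under median scaling over kept probes, -0.03 without both siIPMK arrays of experiment 1, -0.01 with probes averaged and -0.03 to 0.05 with 1 array left out. Leaving out UVSSA, whose control readings are not levels, gave -0.1 without MMC and -0.01 with it. Without MMC the 14 falls became 8 to 18 when 1 array was left out, against 13.1% to 23.3% of all genes. They were 8 without the siIPMK array of experiment 2 and 9 without the control array of experiment 3. Scaling by the median of all probes, an alternative chosen after seeing the data, gave 7, against 11.3% of all genes. The 3 rises became 3 to 5 with 1 array left out, against 13.9% to 23.4% of all genes. They were 5 with the experiment number as a replicate block, where 23.9% of all genes rose. They were also 5 without both siIPMK arrays of experiment 1 (27.1% of all genes) and with all-probe median scaling (26%). With MMC the falls ranged from 11 to 15 and the rises from 2 to 4 with 1 array left out. Of all genes, 14.9% to 23.5% fell and 14.4% to 25% rose in those runs. With the replicate block 5 members rose, against 24% of all genes. MMC calls under control siRNA were 0 in the main fit, 1 with median scaling over kept probes (UNG), 2 with the replicate block or with only both groups in the fit (UNG, APTX), 3 without both siIPMK arrays of experiment 1, 0 to 2 with 1 array left out and 5 with siRNA-by-experiment pairs as blocks, also chosen after seeing the data. Calls over all genes under control siRNA moved as well, from 194 in the main fit to 192 with median scaling over kept probes. They were 281 with the replicate block, 277 with only both groups and 447 without both siIPMK arrays of experiment 1. With 1 array left out they were 115 to 267, and with the pairs 950. Under siIPMK member calls were 0, and 2 with those pairs, where 278 of all genes were called. Other alternatives kept each count within 1.5 times. The replicate block lost none of the 17 and 16 depletion calls. TDG, UNG, XRCC1, MUTYH, NTHL1, PARP2 and NEIL3 kept their calls under the alternatives, in both depletion comparisons. UVSSA passed the filter only through its siIPMK arrays, so its calls under the alternatives are no support. Median scaling over kept probes deepened the falls of APEX1 and PARP1 without MMC to -0.56 and -0.51. Averaging probes ended the ERCC1 call without MMC, at -0.14, and dropping the detection filter to 1 array or the variance trend ended that of APEX2 with MMC. Where the all-probe scaling ended calls, the cause was not tested. Signal near background limits UVSSA, PMS1, ERCC4, MLH3 and DDB2.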
